A study of Mus musculus and synthetic construct with 32 samples.

Results

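Newborn mouse ovaries that lack Ythdc2 were compared with ovaries of heterozygous controls. The comparison took every ovarian library of the series: 2 knockout (YTHDC2 -/-) and 2 heterozygous libraries, 4 of the 32 samples in all and 4 of its 14 total RNA libraries. All 4 came from C57BL/6J mice at postnatal day 0 (P0), and the controls still carried a mutant allele. Per the labels' protocols there were 2 mutant lines, made with Cas9. In the first a cassette of stop codons sits in exon 7, and in the second a 152 bp deletion takes out that exon. The labels do not say which line a library came from, whether ovaries were pooled, or whether the libraries came from separate animals, so the p-values measure only the spread between these samples, which may be technical. Total RNA was sequenced after removal of ribosomal RNA, with a stranded kit, so unspliced RNA and both strands are represented. The authors' deposited table lists 70384 features: 19463 genes by their sense exons, and, counted apart, introns, antisense reads, repeat families and miRNA loci.

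YTHDC2 is an RNA helicase with a YTH domain, the fold that recognises N6-methyladenosine (m6A) in RNA. With its partner MEIOC it is needed for germ cells to leave the mitotic programme and complete entry into meiotic prophase I. In a newborn ovary the germ cells are normally oocytes at the end of that prophase, when pregranulosa cells begin to enclose them in primordial follicles. Oocyte transcription factors such as NOBOX, FIGLA, LHX8 and SOHLH1 switch on the genes that the growing oocyte will need, and the piRNA pathway, which silences transposons with small RNAs, is active in the same cells.

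Each feature has a mean normalized count over all 4 libraries, a log2 fold change (knockout over heterozygote, so that a negative value is lower in the knockout) and an adjusted p-value from the authors' DESeq2 comparison. Values per library were not analysed here, so no spread can be given for a single gene, and it cannot be said whether the groups overlap or whether 1 library carries a value. A feature was called at an adjusted p below 0.05 and counted as measured at a mean count of at least 10. The folds are drawn toward 0 where counts are low: in the authors' deposited table their SD across genes was 0.04 below a mean count of 10 and 0.15 between 100 and 1000. Because the tissue was bulk RNA, fewer cells of a type and less RNA per cell cannot be told apart. The mean normalized counts of all sense exons, measured or not, made up 33.6% of the sum over all features, and those of sense introns 36.7%.

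The labels were checked first. Ythdc2 (chr18:44827730-44889720, GRCm38) had a mean count of 280 and a log2 fold of -0.43, not called (adjusted p 0.584) per the authors' deposited table, and its introns stood at 0.05. Counts summed over the gene cannot show whether exon 7 is altered. The tissue carried its defining markers: the authors' deposited table gave a mean count of 195 for Foxl2, the pregranulosa transcription factor, 172 for the germ cell helicase gene Ddx4, and 22451 for Xist, which is transcribed from the inactive X of females. The Y-linked genes Ddx3y, Eif2s3y, Kdm5d and Uty were not at 0 but had mean counts of 20.6 to 43.1, against 1065 to 2115 in the separately normalized table of P12 testes. Their ovarian folds in the authors' deposited table lay between 0.23 and 0.37, all 4 above 0 and 0 called, and their part in the results below was not tested.

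Of 14606 measured genes, 65 were lower in the knockout ovary (0.445%) and 15 were higher (0.103%) in sense exons, and the median log2 fold of all of them was 0.00 in the authors' deposited table. Among the lower genes 25 had a log2 fold of -1 or below, while none of the higher ones reached 1. The falls therefore outnumbered and exceeded the rises. Of the 65, 30 belonged to a gene list of oocyte, piRNA, meiotic, X-linked germ cell or p53 function and 35 to none of the 25 lists used here.

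**Figure D1:**
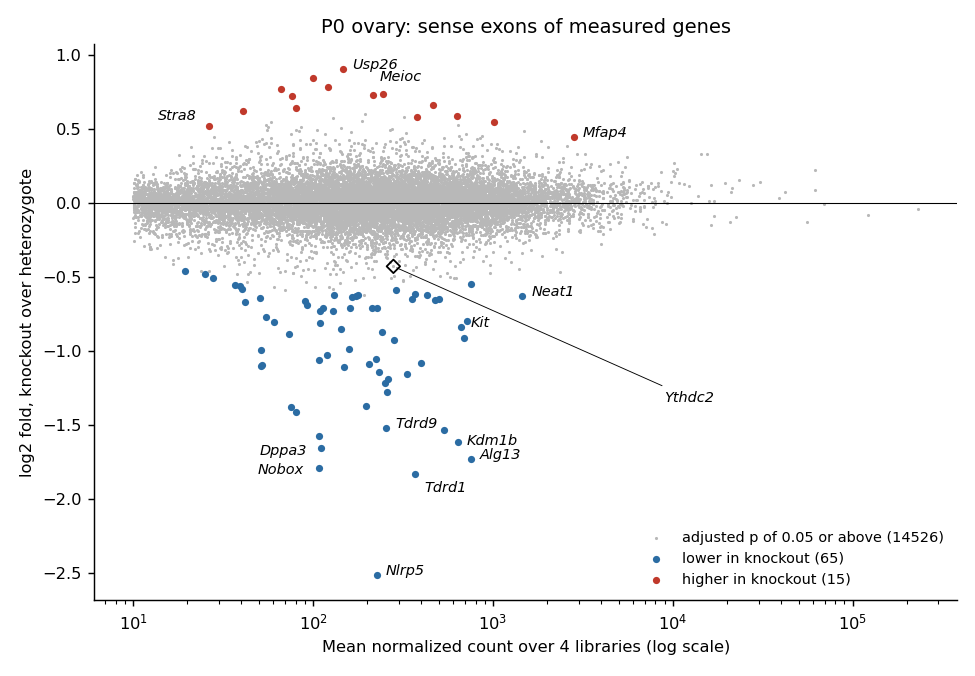
Log2 fold of sense exons (knockout over heterozygote) against the mean normalized count over 4 libraries (log scale), 1 point per measured gene, from the authors' deposited table. The 65 lower genes reach down to Nlrp5 at -2.51, the 15 higher genes end at Usp26 at 0.90, and Ythdc2 (open diamond) is not called.

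Several genes that define the oocyte were lower. The authors' deposited table had 4 of 7 measured oocyte transcription factors lower and none higher, and the median of the list was -1.06. Nobox (chr6:43303674-43310072), a homeobox factor of primordial follicles, had a mean count of 107 and fell by 1.79 on the log2 scale (at an adjusted p of 1.72e-22) per the authors' deposited table. The helix-loop-helix gene Figla, which drives the genes of the egg coat, fell by 1.41 at a mean count of 80.2 in the authors' deposited table (at an adjusted p of 4.20e-14). Lhx8, a LIM-homeobox gene, was at -1.38 and Sohlh1, a second helix-loop-helix gene of early oocytes, at -1.06 in the authors' deposited table (at adjusted p of 1.06e-13 and 1.30e-07). Sohlh2, the partner of Sohlh1, stood at -0.47 (at an adjusted p of 0.327), Foxo3 at -0.27 and Taf4b at -0.05 in the authors' deposited table, and these 3 did not pass. The eighth member, Tbpl2, had a mean count of 6.14 in the authors' deposited table, below the minimum.

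Products that the oocyte secretes or displays were mostly at low counts. In the authors' deposited table, Kit, the receptor through which somatic cells signal to the oocyte, had a mean count of 668 and fell by 0.84 (at an adjusted p of 7.58e-05), and the egg-coat gene Zp2 fell by 0.67 (at an adjusted p of 0.000408). Gdf9 at -0.48, Zp3 at -0.28 and Bmp15 at 0.00 did not pass in the authors' deposited table, which left 2 of 5 measured members lower at a median of -0.48.

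Maternal-effect genes, whose products the egg stores for the early embryo, held the largest fall in sense exons. Nlrp5 (chr7:23385889-23441923), a subunit of the subcortical maternal complex, fell by 2.51 on the log2 scale at a mean count of 226 in the authors' deposited table (at an adjusted p of 2.21e-44). Dppa3, which protects the maternal genome from demethylation, and Kdm1b, a histone demethylase needed for maternal imprints, stood at -1.65 and -1.61 in the authors' deposited table (at adjusted p of 1.48e-19 and 4.41e-23). Nlrp14 at -0.80, Padi6 of the cytoplasmic lattices at -0.77 and Tle6 of the subcortical maternal complex at -0.63 were lower as well in the authors' deposited table (at adjusted p of 4.86e-05, 2.97e-05 and 0.0457). In all, 6 of 14 measured members were lower and none higher, with a median of -0.25, and 15 of the 29 members listed in the authors' deposited table had mean counts under the minimum. Genes of RNA storage and translation control showed 3 of 8 lower at a median of -0.43: Cpeb1, which controls polyadenylation of stored mRNA, at -1.37, the RNA-granule gene Lsm14b at -0.65 and Btg4, an adaptor for mRNA removal in the egg, at -0.46 in the authors' deposited table (at adjusted p of 1.22e-12, 0.00695 and 0.0335).

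The piRNA pathway had the most called members of any list by number, 11 of 22 measured, with none higher and a median of -0.53. By share, the oocyte transcription factors, with 4 of 7, stood above it. The lists were chosen with earlier results of these data known, which bears on such rankings. Among the Tudor-domain proteins that assemble piRNA granules, Tdrd1 (chr19:56826171-56870012) fell by 1.83 at a mean count of 371, and Tdrd5 by 0.73, in the authors' deposited table (at adjusted p of 3.08e-25 and 0.00683). The helicase gene Tdrd9 (chr12:111971488-112068854) fell by 1.52, and Mael, a granule component of transposon silencing, stood at -1.21 in the authors' deposited table (at adjusted p of 1.23e-15 and 3.31e-10). Piwil2, a PIWI protein that carries piRNAs, stood at -1.16, the helicase gene Mov10l1, which starts piRNA production, at -1.08, and Stk31 at -1.08 in the authors' deposited table (at adjusted p of 9.98e-09, 4.58e-08 and 8.69e-08). Rnf17 and the co-chaperone gene Fkbp6 were both at -0.71, Gtsf1 at -0.55 and Exd1 at -0.51 in the authors' deposited table (at adjusted p of 0.00576, 0.00938, 0.0284 and 0.0474). Of the 22 measured members 20 lay below 0 in the authors' deposited table. Among the 11 not called were Asz1 at -0.57, Rpl10l, a ribosomal protein gene on the list, at -0.48, Ddx4 at -0.34, Tdrd7 at -0.13 with a mean count of 315 and Tdrkh at -0.04 in the authors' deposited table. The 2 members above 0 were Tdrd6 at 0.14 and Piwil1 at 0.08 in the authors' deposited table. The uncalled members were named after their values were seen.

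**Figure D2:**
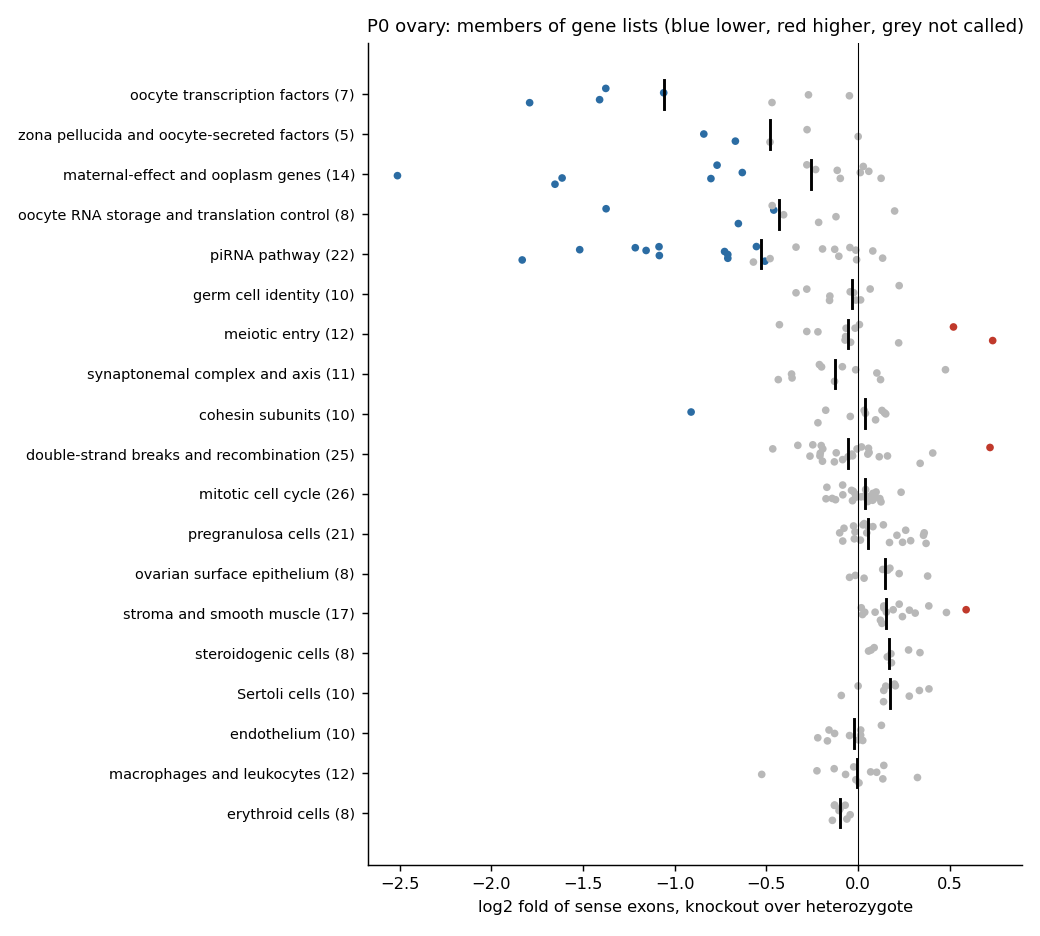
Log2 fold of sense exons for the measured members of 19 gene lists (number of measured members in brackets), from the authors' deposited table, with blue points lower, red points higher and grey points not called, and a black bar at each median. The medians of the first 5 lists lie between -1.06 and -0.25, while the 14 lists below them lie between -0.13 and 0.18. The lists were chosen with earlier results of these data known.

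The upstream sequences of the falling genes are shown because several encode, or are known targets of, helix-loop-helix factors, which bind E-boxes of the form CANNTG. RefSeq windows (GRCm38.p6) from 250 bases before to 50 after the start were at hand for 49 of the 65 lower genes, 64 windows in all. The palindrome CACGTG, a form of CANNTG that reads alike on both strands, was in 17 of the 64 (26.6%), against 9.56% of 13974 windows of measured genes and 7.15% of all 32851 windows. Any CANNTG was in 85.9% of the lower genes' windows, in 64.6% of those of measured genes and in 72.3% of all windows. TAATTA or TAATTG on either strand, the core that NOBOX-type homeodomains bind, was in 9.38%, 7.28% and 12.4%, so that the lower genes' share lay above that of measured genes and below that of all windows. Windows of a gene can overlap, and no test was made. Counted by gene, CANNTG was in 81.6% of the 49 lower genes, 68.0% of measured genes and 75.0% of all genes with a window. By gene, the shares were 28.6%, 11.4% and 8.09% for CACGTG, and 12.2%, 8.70% and 14.2% for TAATTA or TAATTG. In the 250 bases before the start, 6 of 9 called piRNA genes with a window held CACGTG (Tdrd1, Tdrd9, Mael, Mov10l1, Fkbp6 and Stk31), and so did 3 of 9 that were not called (Piwil1, Pld6 and Ddx4). The synaptonemal complex list, with no gene called, held CACGTG in 6 of 11 (Sycp1, Sycp3, Syce2, Tex12, 4930447C04Rik and Hormad1), so the motif was not limited to genes that fell. The first 2 sequences below are the whole 250 bases upstream of Sohlh1 (chr2:25847249-25847498, minus strand), which holds 3 copies, and of Mael (chr1:166238745-166238994, minus strand), which holds 1. The next 4 are 30-base stretches around a copy at Tdrd1 (chr19:56826186-56826215, plus strand), Tdrd9 (chr12:111971452-111971481, plus strand), Stk31 (chr6:49395472-49395501, plus strand) and Fkbp6 (chr5:135350064-135350093, minus strand). The windows are counted from the start of one RefSeq transcript: the stretches of Tdrd1 and Fkbp6 lie inside the annotated gene, before one of several starts, and those of Tdrd9 and Stk31 before the whole gene. All are written 5′ to 3′ on the gene's strand with CACGTG in capitals. A match is a description and not a site of binding.
Sohlh1: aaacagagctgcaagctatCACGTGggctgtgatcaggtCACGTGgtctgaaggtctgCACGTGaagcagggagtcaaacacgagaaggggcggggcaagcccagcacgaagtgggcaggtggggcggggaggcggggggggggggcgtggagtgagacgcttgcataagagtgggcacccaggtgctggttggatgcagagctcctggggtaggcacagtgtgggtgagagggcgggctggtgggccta
Mael: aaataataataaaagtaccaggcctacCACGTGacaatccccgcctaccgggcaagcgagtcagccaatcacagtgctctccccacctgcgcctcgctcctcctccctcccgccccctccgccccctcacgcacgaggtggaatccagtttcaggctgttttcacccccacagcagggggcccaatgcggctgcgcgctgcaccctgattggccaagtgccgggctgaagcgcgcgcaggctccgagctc
Tdrd1: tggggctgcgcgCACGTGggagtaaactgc
Tdrd9: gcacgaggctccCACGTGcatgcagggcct
Stk31: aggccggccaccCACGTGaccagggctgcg
Fkbp6: gcgtctatcgatCACGTGccgtttctctcg

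Other large falls lay outside the oocyte and piRNA lists. Those in the authors' deposited table included Alg13, an X-linked glycosylation gene, at -1.73 with a mean count of 755, Ccno, a cyclin-like gene, at -1.57, Neb, the giant muscle protein nebulin, at -1.53, Esrp1, an epithelial splicing regulator, at -1.28 and Gdpd1 at -1.19 (at adjusted p of 2.02e-28, 5.25e-17, 1.10e-18, 1.20e-11 and 5.07e-10). The other 30 lower genes in no list ran from -1.14 to -0.48 in the authors' deposited table. They held Elavl2 and Uchl1, both also known from neurons, at -1.14 and -0.93, the Notch ligand gene Jag2 at -0.99 and the nuclear long noncoding RNA Neat1 at -0.63 in the authors' deposited table (at adjusted p of 5.78e-09, 2.57e-05, 3.85e-06 and 0.0150); these 4 were chosen after their values were seen. The X chromosome held 8 of the lower genes among its 543 measured genes (1.47%) and chromosome 6 held 8 of 739 (1.08%), against 0.445% of all measured genes. Chromosome 17 held none of 690, and chromosomes 8, 9, 10, 16 and 18 held 1 each. The spread over chromosomes was not tested. Figla lies 7685 bases from Add2, a cytoskeletal gene that was also lower, at -0.81 in the authors' deposited table (at an adjusted p of 0.000226).

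Genes of general germ cell identity, a list that also holds genes of oocyte precursors, gave no call. None of the 10 measured members passed, and their median was -0.03 in the authors' deposited table. Over all measured genes 0.548% were called in either direction, so no call among 10 was near that share. Several members had low counts, and at a mean count of at least 100 the list median was -0.15. Dazl had a mean count of 704 and a fold of -0.15, and Rbm46, whose product also joins YTHDC2 and MEIOC, had 234 and -0.28 (at an adjusted p of 1.00 for each) per the authors' deposited table. The difference between this list and the oocyte lists was not tested. In the p53 and oocyte quality control list, 2 of 15 were lower at a median of -0.05: Trp63, the guardian of oocyte genome integrity, at -0.88 and the nuclease gene Aen at -0.62 in the authors' deposited table (at adjusted p of 2.28e-05 and 0.0452).

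Genes of meiosis moved in both directions and mostly did not pass. Among 12 measured genes of meiotic entry, Meioc and Stra8 were higher, none was lower and the median was -0.05 in the authors' deposited table, while the mean was 0.03. Meioc (chr11:102665351-102682240), the partner of YTHDC2, rose by 0.74 at a mean count of 244, and Stra8, the retinoic acid target that starts meiosis, rose by 0.52 at a mean count of 26.3, in the authors' deposited table (at adjusted p of 0.00576 and 0.0266). Xrn1, the exonuclease that also binds YTHDC2, had 1522 and a fold of 0.01 in the authors' deposited table. None of 11 synaptonemal complex and axis genes was called, at a median of -0.13, with the transverse filament gene Sycp1 at -0.43 (at an adjusted p of 0.608) and Sycp2 at -0.08 in the authors' deposited table. Of 25 recombination genes 1 was higher, none was lower and the median was -0.05 in the authors' deposited table; Tex15, the member with the highest count, stood at -0.46 (at an adjusted p of 0.137) and Mlh3 at -0.13. None of 5 genes of telomere attachment was called, with Sun1 at 0.20, Cdk2 at 0.04 and a median of 0.11 in the authors' deposited table. Of 10 cohesin subunits, meiosis-specific Smc1b was the lower one, at -0.91 with a mean count of 688 (at an adjusted p of 1.53e-07), against a median of 0.04, a mean of -0.07 and values of 0.10 for Stag2 and 0.04 for Rad21 in the authors' deposited table.

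Germ cell genes on the X that are active before meiosis split in direction. Usp26, a ubiquitin protease gene, was the largest rise in sense exons, at 0.90 (at an adjusted p of 5.60e-05), while Taf7l, a germ cell form of a general transcription factor subunit, fell by 0.71 (at an adjusted p of 0.00876) per the authors' deposited table, and the median of the 7 was -0.05 with a mean of 0.04. Among the other rises, M1ap, a meiosis gene, stood at 0.85, Tex101, a germ cell surface protein gene, at 0.78, and the cyclin gene Ccnb3 at 0.66 in the authors' deposited table (at adjusted p of 0.000290, 0.00174 and 0.0156). Hist3h2bb-ps at 0.77, Tuba3a at 0.64 and Hmgn2 at 0.58 have close copies elsewhere in the genome, so their folds in the authors' deposited table are uncertain. C1qtnf3, which encodes a secreted protein, stood at 0.73, and the matrix protein genes Aspn and Mfap4 at 0.59 and 0.45, in the authors' deposited table (at adjusted p of 0.00425, 0.0474 and 0.0431). The phospholipase gene Plce1 at 0.55 and the locus 2610507I01Rik at 0.62 were also higher in the authors' deposited table (at adjusted p of 0.0215 and 0.0119).

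Somatic lists lay close to 0 or slightly above it. All 17 stroma and smooth muscle genes were above 0 at a median of 0.16, and Aspn alone was called; the member with the highest count, Col3a1, had 0.23 in the authors' deposited table. All 8 steroidogenic genes were above 0 at a median of 0.17 and 9 of 10 Sertoli cell genes at a median of 0.18, with none called; Hsd3b1 stood at 0.06, Ptch1 at 0.18, Aard at 0.14 and Fgf9 at 0.00 in the authors' deposited table. Pregranulosa cells had 15 of 21 genes above 0, a median of 0.05 and none called, with Kitl, the ligand of Kit, at 0.24 and Wt1 at -0.02 in the authors' deposited table. Surface epithelium had a median of 0.15 over 8 genes, with Upk3b at 0.14 and Lrrn4 at 0.17 in the authors' deposited table, and none called. The 8 erythroid genes were all below 0 at a median of -0.10, with Hba-a2 at -0.13 and Hbb-bt at -0.14 in the authors' deposited table, and none called. Endothelium (10 genes, median -0.02, Kdr at 0.13 and Pecam1 at 0.03), leukocytes (12 genes, median 0.00, Mrc1 at 0.14 and Csf1r at -0.02) and mesonephros, oviduct and adrenal genes (5 genes, median 0.05, Emx2 at 0.19 and Pax8 at 0.10) also had none called in the authors' deposited table. The part of these small shifts in the calls of germ cell genes was not tested.

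Mitotic cell cycle genes had none of 26 called and a median of 0.04, with Mki67 at -0.17 and Ccnd2 at -0.01 in the authors' deposited table. The m6A machinery had none of 16 called at a median of 0.00, with Ythdf3 at 0.05 and Alkbh5 at -0.19, and cytoplasmic RNA decay had none of 21 called at a median of -0.01, with Cnot1 at 0.01 and Cnot6 at 0.04, in the authors' deposited table.

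Intron reads, which come mainly from unspliced RNA, gave a separate readout of each gene. Of 12915 genes with measured introns, 24 were lower (0.186%) and 12 higher (0.0929%) in the authors' deposited table. For the 47 genes with lower exons and measured introns, the authors' deposited table gave a median exon fold of -0.84 and a median intron fold of -0.34; 43 of these introns lay below 0 and 15 were called lower. In the other direction, the 22 genes with lower introns and measured exons had a median exon fold of -0.85 and a median intron fold of -0.82 in the authors' deposited table, with a median exon minus intron difference of 0.04, and the same 15 were called in exons. The 12 genes with higher introns had medians of 0.86 in introns and 0.36 in exons in the authors' deposited table. These sets were chosen by the call in exons or in introns, which bears on the medians. The 15 included Alg13, Cpeb1, Esrp1, Kdm1b, Lhx8, Neb, Nlrp5, Tdrd1, Tdrd9 and Trp63, and 3 of the higher genes, Ccnb3, M1ap and Usp26, were higher in both. Exons and introns differ in length, counts and the amount by which folds are drawn toward 0, so the 2 medians are not on a strictly equal scale.

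Single genes differed in how their exon and intron folds compared, with no test of the difference. Smc1b was at -0.91 in exons and 0.05 in introns, Rnf17 at -0.71 and 0.03, Taf7l at -0.71 and 0.36, and Stk31 at -1.08 and -0.01 in the authors' deposited table, and these introns were not called. Trp63 had the reverse order, with introns at -1.41 (at an adjusted p of 4.18e-12) and exons at -0.88 in the authors' deposited table. Tdrd1 and Tdrd9 introns fell by 0.94 and 1.07, and Esrp1 introns by 0.95, in the authors' deposited table (at adjusted p of 0.000131, 4.32e-06 and 6.32e-06). For Usp26, M1ap and Ccnb3 the introns rose by 0.88, 0.86 and 0.94 in the authors' deposited table (at adjusted p of 0.000395, 0.000395 and 0.000130). In these 3 genes exons and introns thus rose together. The synaptonemal complex genes, none of them called in exons, had 8 of 9 measured introns above 0, and the recombination genes 19 of 25, in the authors' deposited table. Over all genes measured in exons and introns, 6248 of 12275 introns lay above 0. The intron medians of the 2 lists were 0.079 and 0.084, with 1 intron called higher in the first list and 0 in the second. This lean was not particular to them. Intron medians were 0.27 for X-linked germ cell genes, 0.23 for Sertoli cell genes, 0.13 for stroma and 0.12 for steroidogenic genes. Stroma had 12 of 15 introns above 0 and pregranulosa cells 11 of 16. In the other direction, mitotic cell cycle genes had 9 of 25 above 0 and piRNA genes 5 of 18.

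In 9 genes the introns were lower without a call in exons. The largest was the noncoding locus A730082K24Rik, whose introns fell by 2.34 at a mean count of 139 (at an adjusted p of 4.19e-36), against an exon mean count of 10.1, in the authors' deposited table. AY512915, a noncoding locus whose nearest called neighbour is Kbtbd8 at 160781 bases, fell by 1.44, Ryr3, a calcium channel gene, by 1.02 and Syt16, of the synaptotagmin family, by 0.96 in introns in the authors' deposited table (at adjusted p of 1.20e-13, 6.32e-06 and 5.09e-05). Another 9 were higher in introns alone. They included Pparg, a nuclear receptor gene of fat cells, at 0.92, Trank1 at 0.92, the glucocorticoid-responsive gene Tsc22d3 at 0.89, the meiotic axis gene Hormad2 at 0.87 and Adam23 at 0.72 in the authors' deposited table (at adjusted p of 0.000132, 5.02e-05, 7.98e-05, 0.000614 and 0.0127). Hormad2 exons, at a mean count of 19.0, stood at 0.10 in the authors' deposited table.

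**Figure D3:**
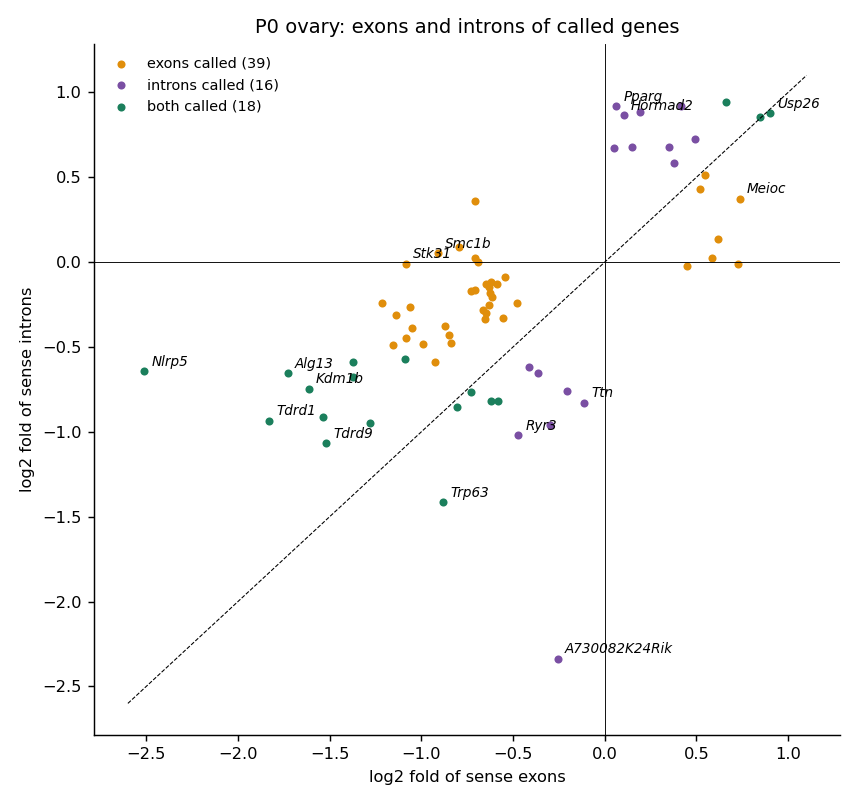
Log2 fold of sense introns against that of sense exons for called genes measured in both, from the authors' deposited table; the dashed line marks equal folds. In 18 genes both were called, and most of the 47 genes chosen by lower exons lie above the line, with median folds of -0.84 in exons and -0.34 in introns.

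Antisense reads held the largest single fold of the table. Across measured features in the authors' deposited table, the SD of folds was 0.36 for antisense introns and 0.14 for sense exons. It was 0.061 for sense repeats and 0.028 for antisense repeats, so fold sizes may not be on an equal scale across feature types. Of 3301 genes with measured antisense intron reads, 23 were called (0.697%), 20 of them lower (0.606%) and 3 higher (0.0909%) in the authors' deposited table. Antisense reads in introns of Syt1 (chr10:108497650-109010980), a synaptic vesicle gene, fell by 4.29 at a mean count of 519 (at an adjusted p of 3.93e-65) per the authors' deposited table. Its sense introns, at a mean count of 6069, stood at 0.20 and its sense exons at 0.16 in the authors' deposited table, neither called. The next were Hsd3b1 at -2.90, Spef2 at -2.85, Hao2 at -2.85, Got2 at -2.54, Vta1 at -2.44, Fbxl17 at -2.25 and Cib4 at -2.17 in the authors' deposited table (at adjusted p of 1.86e-07, 2.17e-16, 2.23e-08, 2.01e-05, 4.63e-05, 1.42e-05 and 0.000761). Higher were Chpt1 at 2.12, Tspan2 at 1.69 and Stab2 at 1.14 in the authors' deposited table (at adjusted p of 0.000479, 0.0333 and 0.0164). On the sense strand of the 20 lower genes, 0 of 14 measured exons and 0 of 17 measured introns were called. Over all measured features 0.548% of sense exons and 0.279% of sense introns were called, so no call was near those shares. The sense exon folds of these genes ran from -0.20 to 0.28 in the authors' deposited table.

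Antisense exon reads were lower for 2 of 2362 genes (0.0847%) and higher for none. The 2 were Arhgap20 at -2.47 and Hsd3b1 at -2.44, in the authors' deposited table (at an adjusted p of 0.000320 for each). Hsd3b1 and Hao2 are neighbours on chromosome 3, 14725 bases apart, and both had lower antisense intron reads, and whether a single transcript spans them was not tested. Hsd3b1 also has close paralogs nearby, which makes its counts uncertain. What is transcribed from the opposite strand was not analysed here.

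**Figure D4:**
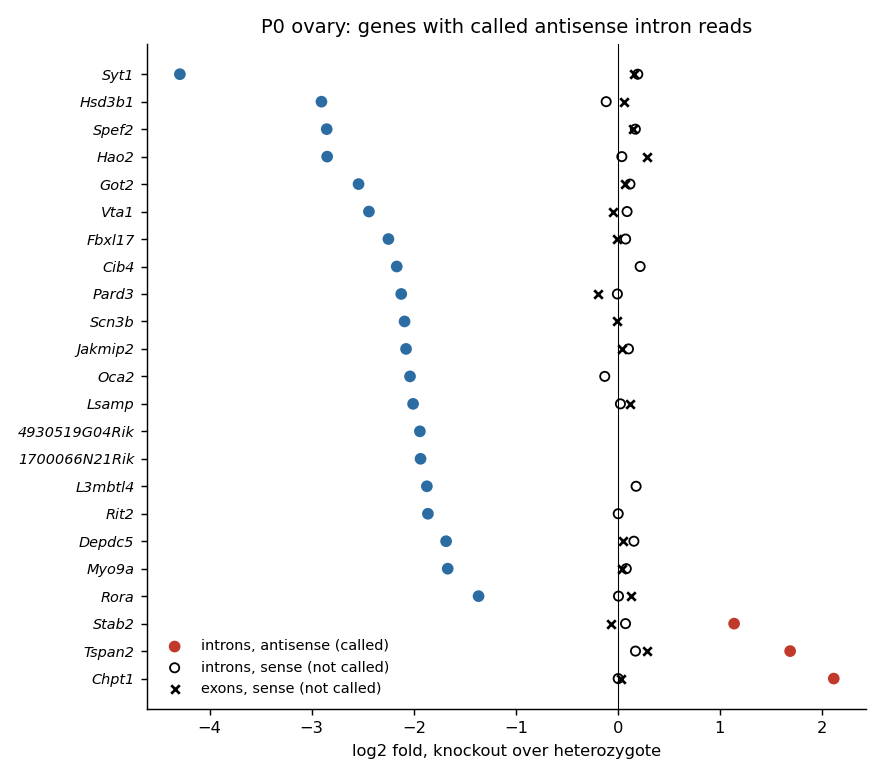
Log2 folds of antisense intron reads (filled circles, blue lower and red higher) for the 23 genes called in them, beside sense introns (open circles) and sense exons (crosses) of the same genes where measured, from the authors' deposited table. The antisense folds run from -4.29 for Syt1 to 2.12 for Chpt1, while the sense folds stay near 0.

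Transposon families were examined because piRNA genes fell. Of 1043 measured repeat families in sense, 4 were lower (0.384%) and 2 higher (0.192%) in the authors' deposited table. The endogenous retrovirus RLTR10 and its internal part RLTR10-int fell by 0.68 and 0.63 at mean counts of 428 and 1403 in the authors' deposited table (at adjusted p of 5.97e-12 and 9.12e-14). These were the 2 called among 10 measured families of the RLTR10 name, of which 7 lay below 0 and 3 above, at a median of -0.05. IAP-d-int, of the intracisternal A particle group, fell by 0.37 and MTA_Mm-int, of a family whose promoters are active in oocytes, by 0.26 in the authors' deposited table (at adjusted p of 0.00959 and 0.0493). The 2 higher ones were IAPEY4_I-int at 0.63, with a mean count of 2544, and the retroviral element MMVL30-int at 0.24 in the authors' deposited table (at adjusted p of 2.48e-18 and 0.0260). So members of the IAP group moved both ways: of 25 measured IAP families 9 lay above 0 and 16 below, with 1 called in each direction.

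Young L1 elements, the LINE family that piRNAs restrain in male germ cells, showed no call. All 6 L1Md families lay above 0, between 0.06 and 0.13, in the authors' deposited table. The 16 Alu-type SINE families all lay below 0, at a median of -0.04 in the authors' deposited table, and none was called. Antisense repeat reads were lower in 2 of 1077 families (0.186%), MURVY-int at -0.23 and MuRRS-int at -0.21 in the authors' deposited table (at adjusted p of 2.11e-05 and 0.000486), and higher in none. Families are sums over many copies of unequal sequence, and a single copy cannot be read from them. The SD of folds over measured families was 0.061 in sense and 0.028 in antisense, against 0.14 for sense exons. Repeat folds may therefore not be on the scale of gene folds.

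**Figure D5:**
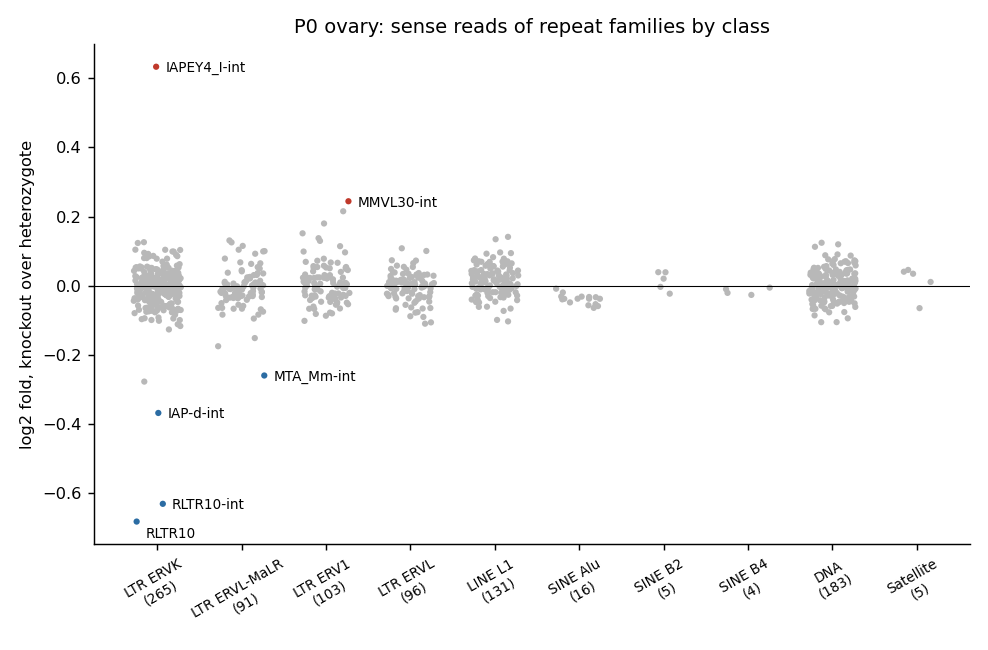
Log2 fold of sense reads for measured repeat families by class (number of families in brackets), from the authors' deposited table, with blue points lower, red points higher and grey points not called. Most families lie within 0.2 of 0, and the ERVK class holds both the lowest, RLTR10 at -0.68, and the highest, IAPEY4_I-int at 0.63. These folds may not be on the scale of gene folds.

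None of the 120 measured miRNA loci, 110 in sense and 10 in antisense, was called, and the lowest adjusted p was 0.998 in the authors' deposited table. The kit does not select small RNA, so these reads can come from host transcripts and precursors. The highest was mir-675, which lies in the imprinted H19 transcript, at a mean count of 4581 and a fold of 0.12 in the authors' deposited table, followed by mir-3069 at 728 and -0.08.

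The genes called in ovary were then read in other libraries of the series. In testes at P12, with 3 knockout and 3 heterozygous libraries, 122 of 15608 measured genes were lower (0.782%) and 15 higher (0.0961%) in the authors' deposited table for that tissue. Of the genes lower in ovary, 58 were measured there, with a median of -0.05 and 39 below 0. Over the 14187 genes measured in both tissues the median was 0.01, with 6661 below 0. None of the 58 was called lower, which was near the 0.768% of genes measured in both. Called higher was 1, the cystine transporter gene Slc7a11, which the authors' deposited table put at 0.51 (at an adjusted p of 0.0444). Slc7a11 itself was at -0.62 in ovary in the authors' deposited table (at an adjusted p of 0.0457). Of the 15 genes higher in ovary, 2 were lower at P12, among them Ccnb3 at -1.62 in the authors' deposited table. By list, none of 23 piRNA genes and none of 7 oocyte transcription factors was called at P12, at medians of -0.08 and -0.13, while 15 of 28 recombination genes and 7 of 11 synaptonemal complex genes were lower, at medians of -0.58 and -0.54, in the authors' deposited table. The difference between tissues was not tested, and the tables were normalized separately.

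In m6A immunoprecipitates of wild-type P8 testis RNA, with 1 precipitate and 1 input and so no replicate check, 59 of the lower genes were measured. Their median log2 enrichment was -0.70, with 38 of 59 below 0, against a median of -0.06 over 14085 genes measured in both, in the authors' deposited table of that experiment. The 15 higher genes had a median of 0.04 in the authors' deposited table. Enrichment ran from -1.94 for Rnf17, -1.92 for Alg13 and -1.86 for Mael to 1.52 for AU022751, with 1.40 for Fam160a1, in the authors' deposited table, so the lower genes lay on both sides of 0; AU022751 and Fam160a1 were chosen after their values were seen. The immunoprecipitates came from another tissue and age, and ovarian m6A was not analysed here.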

How the data were processed

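Ovarian total RNA was analysed from 2 knockout and 2 heterozygous P0 libraries, grouped by the genotype in the labels, with the P12 testis and P8 m6A tables as further readouts; the P8 testis and Bind-N-Seq tables were not used. Per the submitters' processing notes, reads were handled with cutadapt, the mm10 genome and DESeq2; for versions, aligner, counting and annotation the entry is "not given in the sources used here". Per the file headers, the authors deposited for each feature one signal, the normalized count averaged over a table's libraries, with a log2 fold change and an adjusted p-value. The P12 column headers also carry the words IP and input, although the labels list total RNA alone, and were read as knockout over heterozygote. P-values appear adjusted within each feature type, and adjusted values alone were used, which leaves no count of features at an unadjusted p. The deposited values do not allow the count models per library that the design also provided for.

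Here features were filtered at a mean count of 10 and called at an adjusted p of 0.05 (Python 3.11.15, pandas 2.3.3), and counts and medians were taken, with scripts tested on simulated data. Names matched RefSeq (GRCm38.p6) for 19333 of 19463 genes. Members and gene lists were chosen with earlier results of these data known. Named genes are Ythdc2, Meioc, Rbm46 and Xrn1, the 15 largest calls in each direction, every called list member, the 2 members of highest count in lists with fewer than 2 calls, and up to 8 calls in each direction of other feature types. The values of 1 called recombination gene are not reported here. Alternatives were other thresholds, count minimums, a minimum fold, means for medians, centring on the median of measured features and shorter upstream windows.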

Additional observations from a re-analysis of the deposited data

How the results depend on the processing

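No paired analysis was possible because the deposited comparisons carry no values per library; for the same reason no library was left out and no other count model was run and the authors' size factors were kept. Centring the 43 list and repeat class medians on the median of measured features moved them by at most 0.0046. At an adjusted p of 0.01, 7 genes were higher in exons, 1 in antisense introns and 1 sense repeat family. At 0.10, 23 genes were higher in exons, 21 in introns and 5 in antisense introns. At a mean count of at least 100, 14 introns and 3 antisense introns were lower, 1 antisense intron was higher and 0 antisense exons were lower. Adding a minimum log2 fold of 0.5 left 1 higher and 2 lower sense repeat families and 0 lower antisense ones. List medians moved with the count minimum. With no minimum they were -0.76 for oocyte transcription factors, -0.28 for the zona list, -0.092 for maternal-effect genes and -0.12 for RNA storage. At 100 they were -0.66, -0.84 and -0.11 for the first 3, -1.08 for piRNA genes, -0.15 for germ cell identity and -0.19 for recombination. Means were -0.92 for oocyte transcription factors and -0.60 for maternal-effect genes, and the mean of the cohesin list was -0.074, opposite in sign to its median of 0.04, with Smc1b the one called member. The exon minus intron median of the higher genes, 0.23, became 0.031 at 100 (1 gene) and 0.47 with no minimum. At 100 the m6A medians were -0.96 for lower and -0.22 for higher genes, the latter a change of sign over 10 genes. The median over all genes measured in both was -0.15 at that minimum. In the 250 bases before the start alone, CANNTG was in 75.0% of the lower genes' windows and 58.2% of those of measured genes, where CACGTG was in 8.04% and TAATTA or TAATTG in 6.71%. The causes were not tested. The other 196 values stayed within 0.1 on the log2 scale for medians, within 1.5 times for counts, or within the Wilson interval for window shares. Of these, 6 values near 0 changed sign against the reported median: meiotic entry (mean 0.026), X-linked germ cell genes (mean 0.038), the m6A machinery (mean -0.025, and -0.0014 when centred), leukocytes (0.038 at 100) and the ERVL class (-5.8e-05 at 100). Lower exons numbered 46 at an adjusted p of 0.01 and 47 at a mean count of 100, and higher exons 10 at 100, against 65 and 15. Below a mean count of 10 no sense exon of 4857 was called and no fold exceeded 0.22. Sense exons below a mean count of 8.08 had no adjusted p-value, so they could not be called at any count minimum.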
